A study of Mus musculus with 18 samples.

Results

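The MHC class II genes described here are 7 genes named by symbol, *Cd74*, *H2-Aa*, *H2-Ab1*, *H2-Eb1*, *H2-DMa*, *H2-DMb1* and *Ciita*, out of 23352 gene symbols in the tables. No threshold on measured values was used to choose them, but earlier results of these data were known. Each had 1 entry in every table, none had a failed estimate, and 6 of the 7 reached the mean of 1 FPKM needed for the test across all genes. *Ciita* did not reach it and was tested on its own. FPKM divides the reads on a gene by transcript length and by the mapped reads of the library.

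MHC class II molecules are heterodimers that present peptides from the endosomal route to CD4+ T cells. H2-Aa and H2-Ab1 are the alpha and beta chains of I-A, and H2-Eb1 is the beta chain of I-E. The invariant chain Cd74 guides newly made dimers to the endosome and blocks their groove, and the H2-DM heterodimer of H2-DMa and H2-DMb1 then exchanges the remaining invariant chain peptide for an antigen peptide. Ciita is the coactivator that switches these genes on. It does not bind DNA itself but joins the RFX, CREB and NF-Y proteins that occupy the X and Y boxes of class II promoters. In liver the genes are expressed mainly by dendritic cells, macrophages including Kupffer cells, and B cells.

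Poly(A) RNA from livers of 18 male mice aged 20 weeks was compared, 9 wild-type C57BL6 mice and 9 *Gpr180*KO mice, all fed a high-fat diet (HFD) for 12 weeks, with 1 library per mouse. The knockout was a whole-body null allele made with CRISPR/Cas9 in C57BL/6J eggs, predicted to remove exon 6 of *Gpr180*, and knockout and control mice descended from heterozygous founders after backcrossing. The comparison asks how the liver transcriptome differs when *Gpr180* is lacking under HFD. Titles of 2 styles divide the mice into what is called series 1 here, with 4 of each genotype, and series 2, with 5 of each genotype. What the styles stand for is not given in the sources used here.

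*Gpr180* averaged 6.79 ± 1.99 FPKM in the 9 wild-type livers and 1.60 ± 0.37 in the 9 knockout livers (SD), with no overlap between the groups. Summed over all entries, libraries held 554796 to 718746 FPKM, the most in KOhfd51. Read totals are not in the tables, but the most common FPKM ratio between libraries among genes with few reads gave depths of 60.8 to 100% of the deepest library in wild-type and 44.3 to 93.5% in *Gpr180*KO livers. The 9 hepatocyte genes with an estimate had a median sum of 21211 FPKM among wild-type and 21934 FPKM among *Gpr180*KO libraries, while the 5 pan-leukocyte genes had median sums of 65.0 and 49.8 FPKM.

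The *H2* members lie together on chromosome 17 of GRCm38 (mm10), between 34122832 and 34316674. In the tables *H2-DMa* spans 34122832 to 34139101, *H2-DMb1* 34153191 to 34160229, *H2-Ab1* 34263227 to 34269418 and *H2-Eb1* 34305867 to 34316674, all on the plus strand. *H2-Aa*, at 34282751 to 34287771, is on the minus strand. *Ciita* lies on chromosome 16 from 10480072 to 10527564 and has 3 start-site entries in the tables, which FPKM per gene does not separate. Of the longest coding transcript of each member in GENCODE vM21, 19.1% of the 75-base stretches of *H2-DMb1* also occur in *H2-DMb2*, the second H2-DM beta gene, so the split of reads between these genes is uncertain. No 75-base stretch of the other 6 members occurs in a transcript of another gene.

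Windows from 250 bases before to 50 bases after the start were given by RefSeq (GRCm38.p6) for 4 of the 7 members. They are shown because the members varied together from liver to liver (below) and because X and Y boxes of class II genes lie shortly before the start. The letters searched, on both strands, were TAG, AAC and GATG, each parted by 1 base of any kind, for the X box, TGATTGG for the Y box and TGACGTCA for the cyclic AMP response element, and they were chosen after the windows had been read. Matches are in capitals.
*H2-Aa*, chr17:34287774-34288073, minus strand: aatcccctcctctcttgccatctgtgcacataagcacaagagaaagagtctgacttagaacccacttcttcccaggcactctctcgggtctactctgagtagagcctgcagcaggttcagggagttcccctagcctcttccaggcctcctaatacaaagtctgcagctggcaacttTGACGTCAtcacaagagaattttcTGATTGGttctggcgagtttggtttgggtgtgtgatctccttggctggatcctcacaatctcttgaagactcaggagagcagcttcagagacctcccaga
*H2-Eb1*, chr17:34305617-34305916, plus strand: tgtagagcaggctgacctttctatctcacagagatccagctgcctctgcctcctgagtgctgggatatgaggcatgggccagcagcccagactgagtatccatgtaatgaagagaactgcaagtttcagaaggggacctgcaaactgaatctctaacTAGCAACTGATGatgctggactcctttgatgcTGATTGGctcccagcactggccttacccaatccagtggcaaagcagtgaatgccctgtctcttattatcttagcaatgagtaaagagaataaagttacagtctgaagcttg
*H2-DMb1*, chr17:34152941-34153240, plus strand: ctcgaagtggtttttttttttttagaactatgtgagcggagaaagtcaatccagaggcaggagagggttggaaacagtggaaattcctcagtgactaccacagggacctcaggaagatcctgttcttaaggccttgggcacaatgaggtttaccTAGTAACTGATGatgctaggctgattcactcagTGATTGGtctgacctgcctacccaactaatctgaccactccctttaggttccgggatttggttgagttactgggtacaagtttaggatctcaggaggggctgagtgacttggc
The *H2-Eb1* window has an X box match 93 to 82 bases and a Y box match 61 to 55 bases before the start. In *H2-DMb1* they stand 96 to 85 and 63 to 57 bases before it. The *H2-Aa* window has the Y box letters 50 to 44 bases and the cyclic AMP response element letters 74 to 67 bases before the start, and no match to the X box letters used. Neither of the 2 windows of *H2-DMa* matched any of the 3 motifs. Boxes outside these windows would not be seen, so the gene is not shown to lack them. Among all 32851 windows of 300 bases, 0.0548% held the X box letters, 7.82% the Y box letters, 1.79% the response element and 0.00913% both X and Y box, which is 3 windows. The *H2-Eb1* and *H2-DMb1* windows are among these 3. As the letters were chosen after these windows had been read, their matches were fixed in advance and the shares are no test. The matches do not overlap one another. A match is a description of the letters and was not tied to the levels that follow.

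Levels can be compared between genes because FPKM is per length. The invariant chain *Cd74* had the highest level, at 103 ± 34.1 FPKM in the wild-type and 88.5 ± 15.7 FPKM in the knockout group (SD, n = 9 each). The chains of I-A and the beta chain of I-E followed. In the same order of genotypes, *H2-Aa* was at 57.4 ± 26.1 and 44.9 ± 8.5 and *H2-Ab1* at 35.4 ± 11.3 and 29.0 ± 6.57 FPKM. *H2-Eb1* was at 21.0 ± 9.61 and 17.4 ± 3.79 FPKM. The H2-DM chains were near the lower end, *H2-DMb1* at 4.56 ± 2.05 and 3.56 ± 0.74 and *H2-DMa* at 3.37 ± 1.07 and 3.18 ± 0.52 FPKM. *Ciita*, the coactivator, was lowest at 0.64 ± 0.24 and 0.41 ± 0.15 FPKM. The order of the means was the same in both genotypes. Neighbours in that order were compared within each library by a two-sided exact sign-flip permutation test, with adjustment over the 12 pairs of neighbours. In wild-type livers 6 of 6 neighbouring pairs differed (adjusted p from 0.0047 to 0.0128, exact test). In *Gpr180*KO livers 5 of 6 did (adjusted p = 0.0047 each, exact test, 9 of 9 libraries in the same order). The exception was *H2-DMb1* over *H2-DMa*, which held in 6 of 9 *Gpr180*KO libraries, with a mean log2 ratio of 0.15 ± 0.35 (SD) and an exact adjusted p of 0.23. In wild-type livers that ratio was 0.35 ± 0.30, and the order held in 8 of 9 libraries. The uncertain split of reads between *H2-DMb1* and *H2-DMb2* bears on this pair and is not covered by the test.

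No class II gene was called different between the genotypes, although the mean of each of the 7 was lower without *Gpr180*. By limma (log2 of FPKM + 0.1, p adjusted by Benjamini-Hochberg), 0 of the 6 members tested passed an adjusted p of 0.05, and 0 had an unadjusted p under 0.05. Of all 10835 genes tested, 4.73% were called, 4.28% lower and 0.452% higher, and 22.2% had an unadjusted p under 0.05. The median log2 difference of the 6 members was -0.20, against -0.13 over the whole table. Because 0.1 is added before the logarithm, differences of weakly expressed genes come out too small. For 0 of the 7 members were all wild-type livers above all *Gpr180*KO livers, which held for 0.175% of genes.

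For *H2-Aa*, the I-A alpha chain, the lowest, median and highest levels were 25.9, 59.7 and 97.3 FPKM among wild-type livers and 27.0, 43.7 and 57.2 FPKM among *Gpr180*KO livers. The knockout range thus lay inside the wild-type range, and 5 wild-type livers were above every *Gpr180*KO liver. The log2 difference was -0.23 (95% interval -0.73 to 0.26, limma adjusted p = 0.571). *H2-Ab1*, its partner, ran from 21.7 over 33.4 to 50.3 FPKM among wild-type and from 15.9 over 31.2 to 37.0 FPKM among *Gpr180*KO livers. Its log2 difference was the most negative of the 6, -0.26 (95% interval -0.65 to 0.13, limma adjusted p = 0.423). *H2-Eb1*, the I-E beta chain, ran from 10.05 over 19.7 to 35.98 FPKM and from 10.1 over 18.01 to 22.2 FPKM, with a log2 difference of -0.17 (95% interval -0.65 to 0.32, limma adjusted p = 0.686). *H2-Ea-ps*, the I-E alpha chain pseudogene of this strain background, was listed at 0 in all 18 libraries. No transcript of an alpha chain partner for *H2-Eb1* was thus measured, and its level does not show that I-E dimers were present.

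*Cd74*, which lies on chromosome 18 from 60803849 to 60812652, had a lowest, median and highest level of 59.1, 94.5 and 147 FPKM among wild-type livers and of 56.4, 93.5 and 108 FPKM among *Gpr180*KO livers. The medians were close, and the wild-type group reached higher, with 4 livers above every *Gpr180*KO liver. Its log2 difference was -0.17 (95% interval -0.54 to 0.20, limma adjusted p = 0.574). For the peptide editor, *H2-DMa* ran from 1.94 over 2.89 to 4.83 FPKM among wild-type and from 2.30 over 3.42 to 3.79 FPKM among *Gpr180*KO livers. Here the median was higher and the mean lower in *Gpr180*KO livers, and the log2 difference was -0.035 (95% interval -0.38 to 0.31, limma adjusted p = 0.911). *H2-DMb1* ran from 1.97 over 3.75 to 7.39 FPKM and from 2.00 over 3.85 to 4.37 FPKM, with a log2 difference of -0.24 (95% interval -0.73 to 0.25, limma adjusted p = 0.55). These intervals include changes of either sign, so equal levels are not shown.

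Scaling between libraries bears on these small differences. Median-of-ratios scaling moved the median of all genes by 0.12, to -0.0054, and turned the sign of *H2-DMa* to 0.085, while the other 5 members stayed between -0.13 and -0.042. Set against the all-gene median, the members' median was -0.075 without and -0.072 with that scaling. The genes called lower and higher over the whole table numbered 464 and 49 without it and 171 and 112 with it. In each of these fits 0 members were called.

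*Ciita* had the lowest unadjusted p of the 7 members in the exact test. Its lowest, median and highest levels were 0.36, 0.59 and 1.02 FPKM among wild-type livers and 0.15, 0.40 and 0.70 FPKM among *Gpr180*KO livers, so the groups overlapped, with 3 wild-type livers above every *Gpr180*KO liver and 3 *Gpr180*KO livers below every wild-type liver. Knockout livers averaged 63.8% of the wild-type FPKM, and 8 of the 9 had less than the wild-type mean of the log2 values. The log2 difference was -0.54 (two-sided exact permutation test, p = 0.026, not adjusted), where 22.2% of the genes in the limma fit had an unadjusted p under 0.05. It was -0.21 with a pseudocount of 1 and -0.65 with one of 0.01 (exact p = 0.0277 and 0.0258). With the minimum lowered to 0.1 FPKM, limma gave an adjusted p of 0.14 over all genes, and 0.166 with no minimum, so *Ciita* was not called. The exact p rose to 0.0526 without W317HFD, 0.0525 without W318HFD and 0.0536 without KOhfd51, the library with its lowest value.

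**Figure D1:**
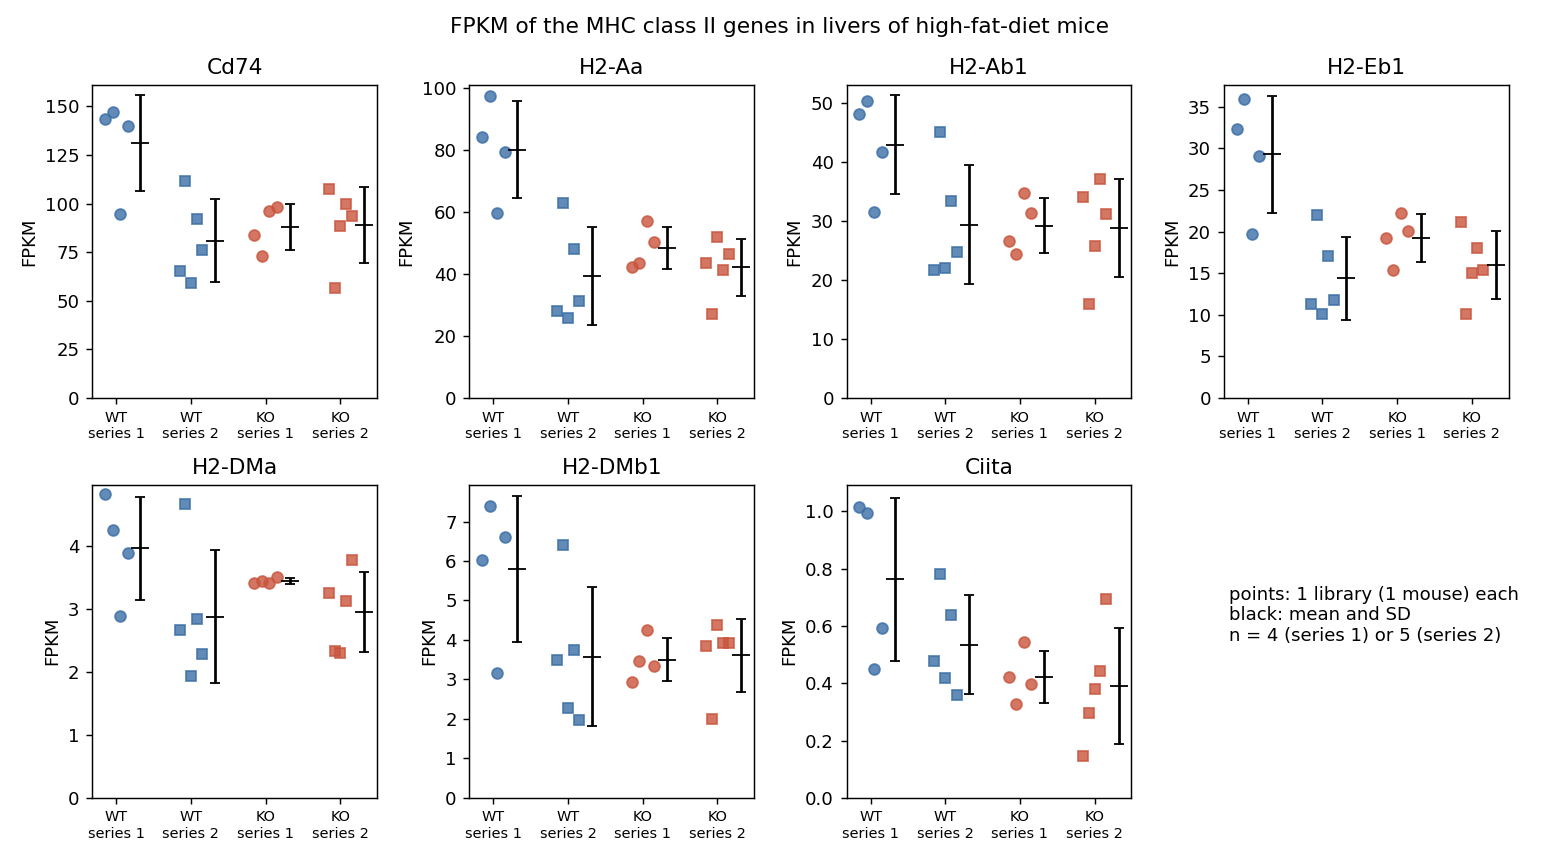
FPKM of each MHC class II gene (vertical axes, linear from 0) in wild-type (blue) and *Gpr180*KO (red) livers, split by title series (circles series 1, squares series 2), with 1 point per library and the mean and SD in black. For *H2-Aa*, wild-type series 1 lies at 59.7 to 97.3 FPKM, above every *Gpr180*KO liver, and overlaps with wild-type series 2 through WThfd133 at 62.8 FPKM.

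Within series 1, *H2-Aa* was the one member called, and it was lower in *Gpr180*KO livers. Its wild-type levels were 84.3, 97.3, 59.7 and 79.4 FPKM, and its *Gpr180*KO levels 42.3, 43.5, 57.2 and 50.5 FPKM. All 4 wild-type livers were above all 4 *Gpr180*KO livers, which was true of 11.5% of all genes tested in this series. *H2-Aa* fell by 0.72 on the log2 scale (95% interval -1.06 to -0.37, limma adjusted p = 0.0385 over all genes in series 1, where 4.5% of genes were called lower). Over the 33 alternative fits its adjusted p ran from 0.0385 to 0.86, with this 1 under 0.05. The exact permutation p of 0.0286 is the smallest that 4 against 4 libraries can give. The log2 difference in series 1 was -0.57 for *Cd74*, -0.54 for *H2-Ab1*, -0.58 for *H2-Eb1* and -0.66 for *H2-DMb1* (limma adjusted p from 0.0673 to 0.148), and -0.17 for *H2-DMa*, whose 4 *Gpr180*KO values lay between 3.42 and 3.52 FPKM. For *Ciita* it was -0.67 (exact p = 0.0571).

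In series 2 the *H2-Aa* levels of the genotypes lay over one another. *H2-Aa* had 28.2, 62.8, 25.9, 48.0 and 31.2 FPKM in wild-type livers and 43.7, 27.0, 52.1, 41.3 and 46.5 FPKM in *Gpr180*KO livers. The highest and the lowest value of this series both came from wild-type mice, and for 0 of the 7 members were all wild-type livers above all *Gpr180*KO livers, as 5.5% of genes were in this series. Log2 differences of the 6 members tested across all genes were between -0.028 for *H2-Ab1* and 0.17 for *H2-Eb1*, and 5 of 6 were above 0. The exact p of the 6 lay between 0.54 and 0.94. *Ciita* had a log2 difference of -0.43 (exact p = 0.23). In limma 0 genes of the whole table were called in series 2, while 2019 had an unadjusted p under 0.05, none of them a member.

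The difference between the series was tested by limma's interaction term, which called 0% of all genes. The log2 difference of *H2-Aa* was higher in series 2 than in series 1 by 0.87 (95% interval 0.16 to 1.58, unadjusted p = 0.0189, adjusted p = 0.593, limma). For *Cd74* the term was 0.71 (95% interval 0.11 to 1.32, unadjusted p = 0.0233, adjusted p = 0.608, limma), and for *H2-Eb1* 0.75 (95% interval 0.041 to 1.45, unadjusted p = 0.0393, adjusted p = 0.643, limma). These 3 of 6 members had an unadjusted p under 0.05, as did 7.69% of all genes. Leaving out each library in turn gave adjusted p between 0.291 and 0.94 over the 6 members. When the series labels were permuted within genotype over 15876 regroupings, the two-sided exact p was 0.0622 for *Cd74*, 0.0958 for *H2-Aa* and 0.149 for *H2-Eb1*. This permutation assumes no series difference in either genotype. A series difference shared by the genotypes widens its spread, so it does not test the interaction alone. By the adjusted limma term, a difference between the series was not established for any member tested.

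**Figure D2:**
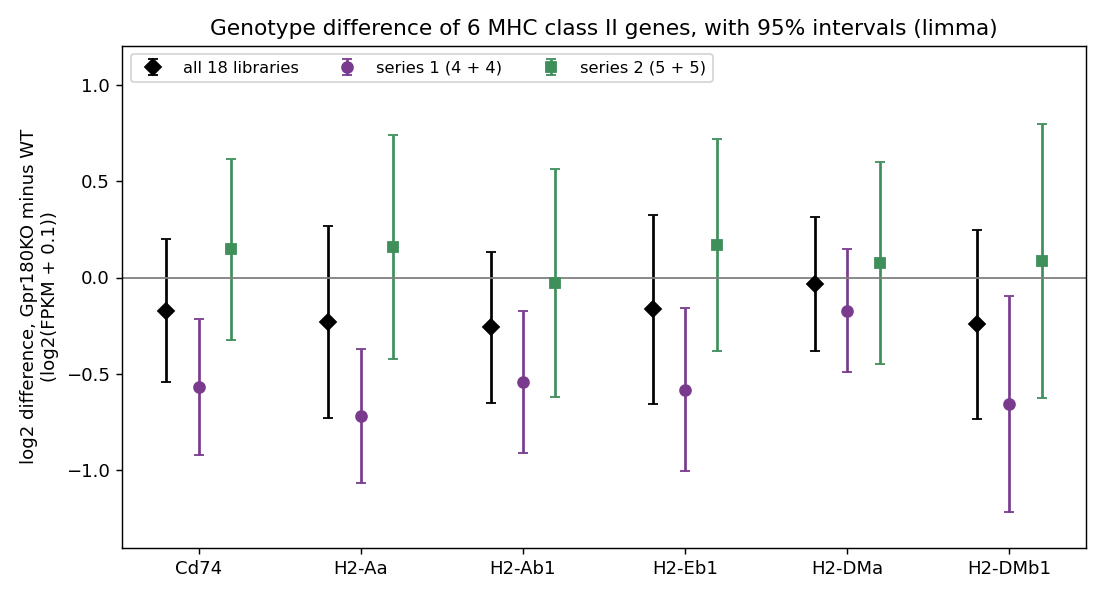
Log2 difference between *Gpr180*KO and wild-type livers on log2(FPKM + 0.1) with its 95% limma interval (vertical axis) for the 6 members tested, over all 18 libraries (black), in series 1 (purple) and in series 2 (green). Series 1 estimates lie between -0.72 and -0.17 and series 2 estimates between -0.028 and 0.17.

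Wild-type means of the 7 members were lower in series 2 than in series 1. The log2 difference, series 2 minus series 1, was -1.09 for *H2-Aa* and -1.05 for *H2-Eb1* (exact permutation p = 0.0238 each, over 126 splits, not adjusted). For *Cd74* it was -0.72 (exact p = 0.0317, not adjusted), and for the other 4 members the exact p lay between 0.0714 and 0.206. In *Gpr180*KO livers the same contrast was -0.22 for *H2-Aa* and -0.0029 for *Cd74*, with exact p between 0.222 and 1 over the 7 members. For 0 of the 7 members were all wild-type livers of series 1 above all those of series 2, a pattern that 13.2% of all genes showed. Among the same livers the marker lists differed in direction. The pan-leukocyte list summed to 66.6 ± 9.97 FPKM in series 1 and 55.8 ± 9.91 FPKM in series 2 (mean and SD), and the list of macrophages and Kupffer cells to 489 ± 58.8 and 411 ± 153 FPKM. Sinusoidal endothelial genes summed to 163 to 194 FPKM in series 1 and 116 to 136 FPKM in series 2, without overlap. The dendritic cell list was at 10.1 ± 1.71 and 10.2 ± 2.47 FPKM, and the list of class I presentation at 3729 ± 228 and 4315 ± 284 FPKM. Their part in the result was not tested.

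Members rose and fell together from liver to liver. In 5 libraries (W317HFD, W318HFD, W320HFD, WThfd133 and KO321HFD) all 7 genes were above their means over the 18 libraries, and in 4 others (WThfd131, WThfd134, WThfd157 and KOhfd52) all 7 were below. The summed level of the 7 was highest in W318HFD, at 343 FPKM, and lowest in KOhfd52, at 114 FPKM. After the mean of each genotype and series had been subtracted, Pearson's r over the 18 libraries was highest for *Cd74* with *H2-Eb1* (0.97), *Cd74* with *H2-Ab1* (0.96) and *H2-Ab1* with *H2-Eb1* (0.95). The 15 pairs of tested members had an r of at least 0.73, the lowest for *H2-Aa* with *H2-DMa*. *Ciita* correlated less with the 6 others, with an r of 0.44 to 0.59. These values are a description, and the points share the library, its depth and its scaling. Few reads lie behind the low *Ciita* values, and in KOhfd51, where *Ciita* was at 0.15 FPKM, *Cd74* was at 108 FPKM, its highest *Gpr180*KO value.

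**Figure D3:**
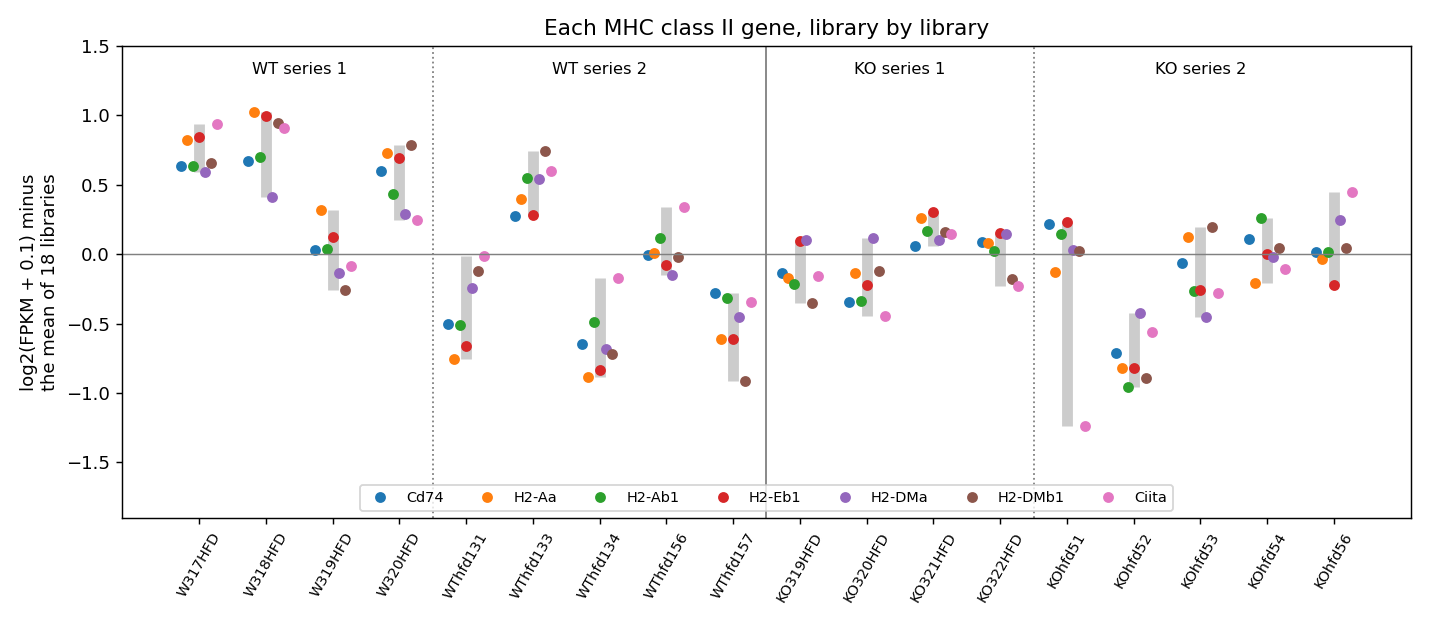
Log2(FPKM + 0.1) of each MHC class II gene minus its mean over the 18 libraries (vertical axis), with 1 colour per gene and a grey bar from the lowest to the highest gene in each library (horizontal axis, grouped by genotype and series). All genes are above 0 in 5 libraries and below 0 in 4, and *Ciita* in KOhfd51 is the lowest point.

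The proportions between members were compared within libraries, which removes the scaling between libraries. Of 6 ratios between members, 0 passed an adjusted p of 0.05 and 0 had an unadjusted p under 0.05 (two-sided exact permutation test, adjusted over 13 ratios). The ratio of the I-A chains, *H2-Aa* to *H2-Ab1*, ran from 1.18 to 1.94 in wild-type and from 1.11 to 2.03 in *Gpr180*KO livers. *Cd74* to *H2-Ab1* was the steadiest, at 2.48 to 3.36 and 2.69 to 3.56. For *Ciita* to *Cd74*, the coactivator against its target, the log2 difference was -0.37 (SD 0.29 in wild-type and 0.53 in *Gpr180*KO livers, exact p = 0.0664, adjusted p = 0.279). It was -0.042 with a pseudocount of 1, -0.11 in series 1 alone and -0.57 in series 2 alone.

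Class II genes were also set against *Ptprc*, which encodes the leukocyte surface protein CD45. *Ptprc* averaged 4.24 ± 1.56 FPKM without and 2.58 ± 0.74 FPKM with the knockout (SD, n = 9 each, log2 difference -0.65, limma adjusted p = 0.0979). In bulk tissue, fewer leukocytes and less RNA per leukocyte cannot be told apart. Relative to *Ptprc*, the mean of each of the 7 members was higher in *Gpr180*KO livers, by 0.11 for *Ciita* to 0.61 for *H2-DMa* on the log2 scale. The median over all 10834 other genes tested was 0.52, so most genes were higher relative to *Ptprc*. For *H2-DMa* the log2 ratio lay between -1.57 and 0.36 in wild-type and between -0.13 and 1.27 in *Gpr180*KO livers, and 9 of 9 *Gpr180*KO livers were above the wild-type mean. Its exact p was 0.00905, with an adjusted p of 0.118 over 13 ratios, and in limma over all genes its adjusted p was 0.0704, where 0.711% of genes were called higher. Across the 22 alternatives the adjusted exact p of *H2-DMa* ran from 0.0412, without WThfd157, to 0.271. With the leukocyte gene *Laptm5* as the reference, it was 0.00321 for a log2 difference of 0.56. *Laptm5* was itself called lower, the median of all other genes against it was 0.47, and limma called 55.1% of them higher. For the 6 other members the adjusted exact p was 0.279 to 0.645 against *Ptprc* and 0.106 to 0.843 against *Laptm5*. In limma against *Laptm5*, *H2-DMa* (adjusted p = 0.00944) and *Cd74* (adjusted p = 0.0472) were under the threshold.

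**Figure D4:**
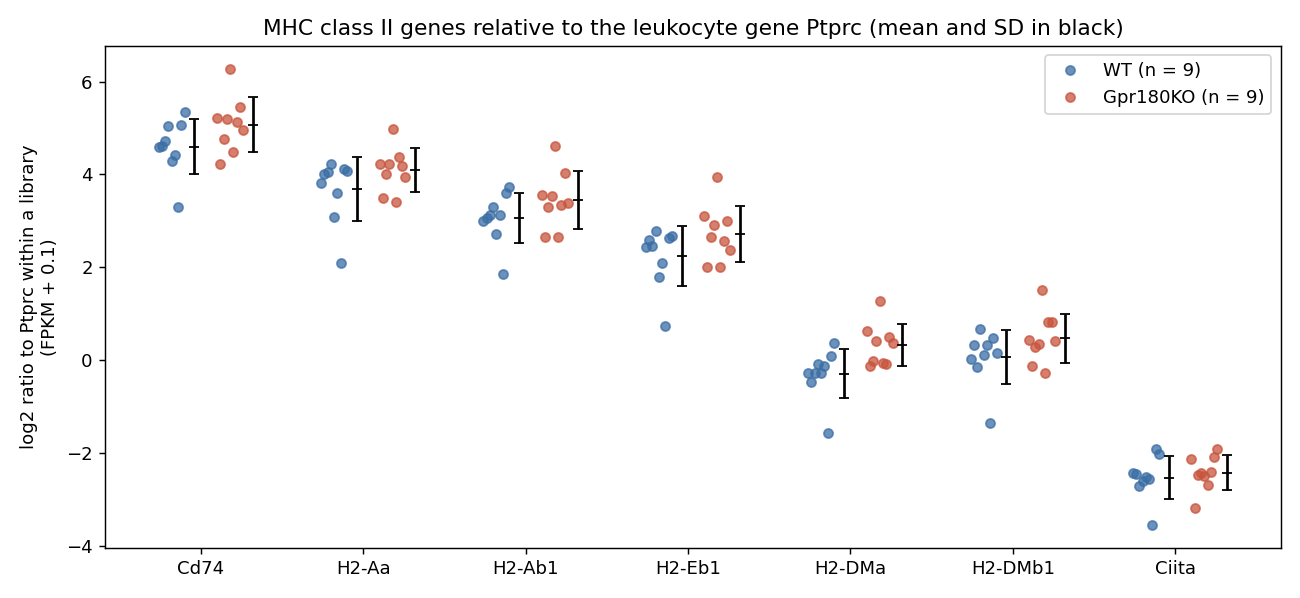
Log2 ratio of each MHC class II gene to *Ptprc* within a library (vertical axis, FPKM + 0.1) in 9 wild-type (blue) and 9 *Gpr180*KO (red) livers, with 1 point per library and the mean and SD in black. Groups overlap for all 7 genes, and the mean of *H2-DMa* is -0.29 in wild-type and 0.32 in *Gpr180*KO livers.

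Other genes of the pathway were read from the same fit, in which 4.28% of all genes tested were called lower. Among the 9 genes of antigen processing and class II turnover, 1 was called lower and 0 higher, with a median log2 difference of -0.31. It was *Lgmn*, an asparaginyl endopeptidase of the lysosome, at 51.7 ± 9.69 FPKM among wild-type and 37.8 ± 4.25 FPKM among *Gpr180*KO livers (log2 difference -0.43, limma adjusted p = 0.0337). *Ctss*, the cathepsin that degrades the invariant chain, was at 54.5 ± 15.1 and 37.8 ± 4.07 FPKM (log2 difference -0.48, limma adjusted p = 0.0573). Of 10 class II transcription factors 1 was called lower, *Nfyb*, an NF-Y subunit that binds the Y box, at 13.7 ± 1.36 and 10.9 ± 1.64 FPKM (log2 difference -0.34, limma adjusted p = 0.0407). *Rfx5*, the RFX subunit at the X box, was at 3.63 ± 0.52 and 2.84 ± 0.65 FPKM (log2 difference -0.38, limma adjusted p = 0.146). On the interferon gamma route, the main inducer of *Ciita*, 1 of 8 genes tested was called lower, the receptor chain *Ifngr2*, at 12.7 ± 2.21 and 9.55 ± 0.995 FPKM (log2 difference -0.40, limma adjusted p = 0.0285). *Irf1*, a transcription factor induced by interferon gamma, had a log2 difference of -0.017 (limma adjusted p = 0.952). With median-of-ratios scaling 0 genes of these 3 lists were called, and with the series as a covariate 3, 2 and 2.

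Of the other class II genes, *H2-DMb2* was at 1.79 ± 0.62 and 1.35 ± 0.40 FPKM (log2 difference -0.35, limma adjusted p = 0.332). The H2-DO chains *H2-Oa* and *H2-Ob*, which restrain H2-DM, and *H2-Eb2* were below 1 FPKM and were not tested. Among genes of T cell costimulation 3 of 7 were tested and 0 called, with a median of -0.42. An unadjusted p under 0.05 was reached by 2 of the 3 and by 22.2% of all genes tested. Among the 10 genes of MHC class I presentation 0 were called, 1 had an unadjusted p under 0.05, and the median was -0.12, close to that of all genes. *H2-K1*, a class I heavy chain, was at 816 ± 91.3 and 775 ± 151 FPKM.

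Markers of cells that carry class II were compared in the same livers, where 4.28% of all genes tested were called lower. The 5 pan-leukocyte genes had a median log2 difference of -0.59, and 1 was called lower, *Laptm5*, at 13.5 ± 3.59 and 8.75 ± 1.75 FPKM (limma adjusted p = 0.0358). That call was lost with median-of-ratios or 75th percentile scaling. Their summed level ran from 43.4 to 75.6 FPKM among wild-type and from 37.6 to 51.7 FPKM among *Gpr180*KO livers. Of 10 dendritic cell genes 2 were tested and 1 was called lower, *Cd24a*, which is not specific to dendritic cells, at 3.56 ± 1.49 and 1.31 ± 0.56 FPKM (limma adjusted p = 0.00677). The summed dendritic cell list ran from 6.82 to 13.7 FPKM and from 3.67 to 6.83 FPKM, with means of 10.2 and 5.69 FPKM. *Cd24a*, at 3.56 and 1.31 FPKM, is part of this sum, so it does not measure dendritic cells alone. Of the defining dendritic cell genes, *Itgax* averaged 1.14 and 0.43 FPKM, *Clec9a* 0.90 and 0.75 FPKM, *Xcr1* 0.20 and 0.14 FPKM and *Flt3* 0.20 and 0.13 FPKM. The knockout mean was below the wild-type mean for 10 of the 10 genes of the list.

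In the list of macrophages and Kupffer cells 1 of 12 genes was called lower, *Cd68*, a lysosomal glycoprotein, at 19.3 ± 4.55 and 11.9 ± 2.84 FPKM (limma adjusted p = 0.0257). Over all genes tested, 4.28% were called lower. The count of this list stayed at 1 in 26 alternative fits and lay between 0 and 2 in 7. The median of the list was -0.20, and the knockout mean was below the wild-type mean for 10 of the 12 genes. The Kupffer cell lectin *Clec4f* went the other way, at 43.9 ± 12.7 and 48.1 ± 10.3 FPKM, and was not called (log2 difference 0.16, limma adjusted p = 0.573). In the list of monocytes and recruited macrophages 3 of 5 genes tested were called lower, *Ccr2*, *Trem2* and *Gpnmb*, with log2 differences of -1.43, -1.82 and -2.31 (limma adjusted p of 0.0279, 0.0227 and 0.0373). That count depended on the fit. It was 2 to 4 in 21 alternative fits and ranged from 0 to 5 in 12. The summed level of that list was 7.03 to 50.8 FPKM among wild-type and 6.68 to 18.1 FPKM among *Gpr180*KO livers. No B cell or T cell marker reached a mean of 1 FPKM over the 18 libraries, and the summed B cell list ran from 1.72 to 5.14 and from 1.47 to 3.73 FPKM. Neutrophil genes had a median of -1.07 with 0 of 3 called and 3 of 3 at an unadjusted p under 0.05, as were 22.2% of all genes. Sinusoidal endothelial genes had a median of -0.13 with 0 of 8 called, and hepatocyte genes one of 0.025 with 0 of 9 called. Stellate cell genes were called lower in 4 of 8 cases, *Dcn*, *Col1a1*, *Col3a1* and *Pdgfrb*, and cholangiocyte genes in 1 of 2, *Sox9*, which was not called with median-of-ratios or 75th percentile scaling. In series 2 alone 0 genes of these marker lists were called, as in the whole table. The part of these cell types in the class II levels was not tested.

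**Figure D5:**
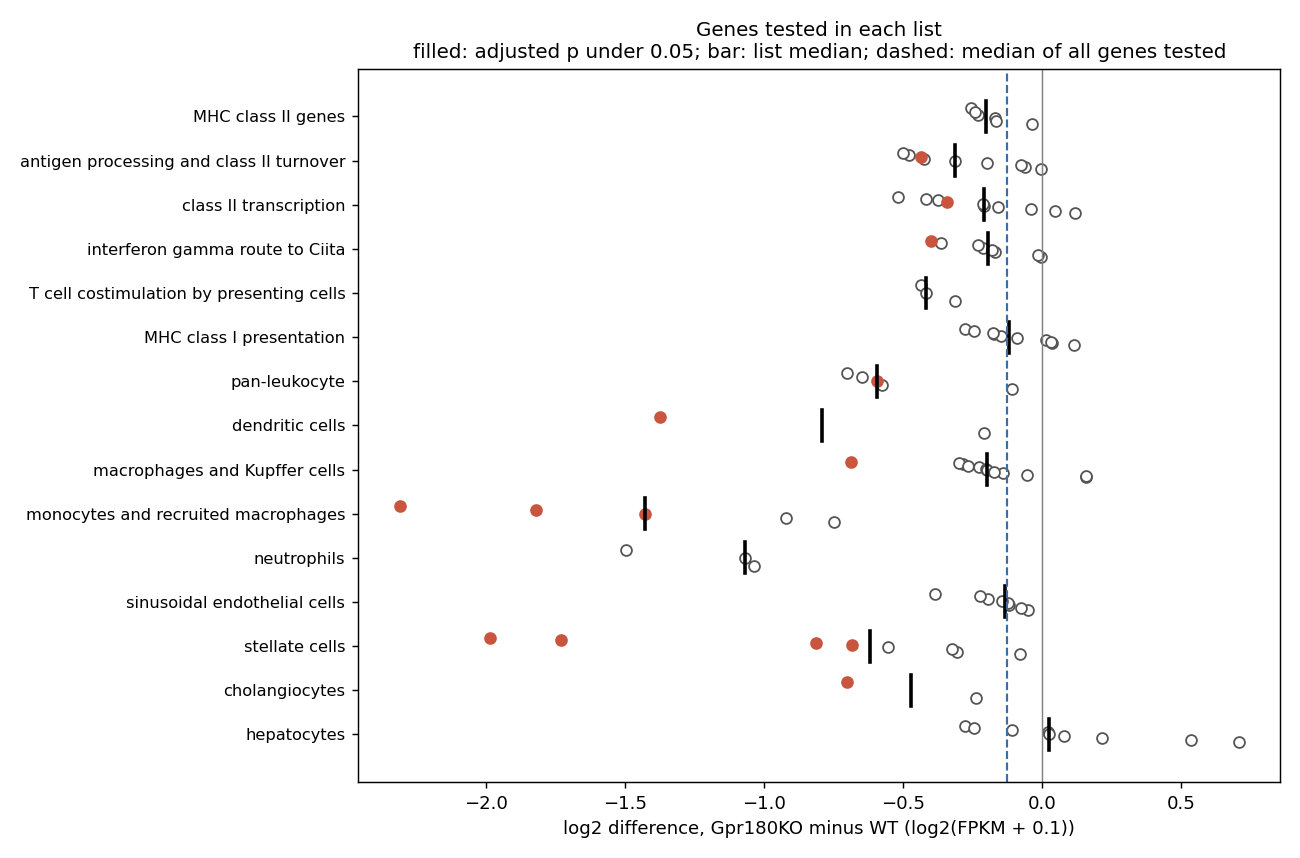
Log2 difference between *Gpr180*KO and wild-type livers (horizontal axis) of the genes tested in each list with at least 2 tested genes (vertical axis), with filled points for an adjusted p under 0.05, a black bar at the list median and a dashed line at the median of all genes, -0.13. The class II genes sit between -0.26 and -0.035 with none filled, while 3 of the 5 genes of monocytes and recruited macrophages are filled.

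The genes outside the set whose residuals followed those of the 6 members most closely, by Pearson's r over 18 libraries after subtraction of each group's mean, were *Lyplal1* (0.87), *Vdac2* (0.83), *Chchd3* (0.82), *Hmgn2* (0.82), *Ubd* (0.81), *Vps29* (0.80), *Atxn10* (0.79), *Tmem176a* (0.78), *Tmem176b* (0.78) and *Pbxip1* (0.78). The median r of all 10829 other genes tested was 0.071. Of these 10 genes 6 were called lower in *Gpr180*KO livers, against 4.28% of all genes. *Ubd*, a ubiquitin-like modifier induced by interferon gamma, was at 6.41 FPKM among wild-type and 1.92 FPKM among *Gpr180*KO livers (log2 difference -1.57, limma adjusted p = 0.0279). *Tmem176b*, a membrane protein, was at 212 and 138 FPKM (log2 difference -0.62, limma adjusted p = 0.0387). Not called were *Vdac2*, *Chchd3*, *Atxn10* and *Pbxip1*, with log2 differences of -0.054, -0.048, -0.049 and -0.35 (limma adjusted p from 0.119 to 0.692). By list, the median r with the members was 0.52 for antigen processing, 0.49 for monocytes and recruited macrophages, 0.43 for class I presentation, 0.34 for pan-leukocyte genes, 0.33 for the interferon gamma route and 0.30 for macrophages and Kupffer cells. It was 0.24 for stellate cells, 0.22 for costimulation, 0.17 for the 2 dendritic cell genes tested, 0.16 for neutrophils, 0.15 for hepatocytes, 0.081 for cholangiocytes, 0.028 for class II transcription and -0.029 for sinusoidal endothelial cells. *H2-DMb2* had an r of 0.47.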

How the data were processed

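Liver poly(A) RNA of 9 wild-type and 9 *Gpr180*KO mice on HFD was sequenced as single reads of 75 bases. The authors aligned the reads to mm10 with Illumina's TopHat Alignment application and deposited its FPKM output, 23847 entries for each mouse. The version and annotation are not given in the sources used here, and no counts were used. Entries sharing 1 of 252 symbols were summed, and 24 genes with any of 190 failed estimates were left out. Genes with a mean of at least 1 FPKM (10835) were fitted with limma 3.58.1 (lmFit, eBayes with trend; R 4.3.3) on log2(FPKM + 0.1), adjusted by Benjamini-Hochberg across these genes, at a threshold of 0.05. Single genes and ratios were tested by exact permutation in Python 3.11.15 (numpy 2.4.6, scipy 1.17.1). On simulated data of 10835 genes, limma recovered 91% of 200 genes changed by 1 on the log2 scale, and 3.19% of its calls were unchanged genes. The simulated noise was normal and independent between genes, with the spread left after the means of genotype and series were subtracted. It held no series difference. This checks the fit and does not give the power for differences as small as those of the members. Alternatives were pseudocounts of 1 and 0.01, minimums of 0.1 and 5 FPKM or none, scaling by TPM, by the 75th percentile or by median of ratios, the title series as a covariate or alone, other variance models (statmod 1.5.0), weights per library, and each library left out. The limma fits of ratios to *Ptprc* and *Laptm5*, the permutation of the series within genotype and the interaction with a minimum of 0.1 FPKM or with a library left out were added after seeing the data. Depth limits the precision of low values and no interval for it could be given.

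The genes, lists and tests were chosen with earlier results of these data known. Named were all members, list genes that were called or define their list, and the 10 genes with the highest residual correlation. *Clec4f* and 4 dendritic cell genes that were not called were named after their values were seen. List symbols *Spi1*, *Fcmr*, *Adgre1* and *Chil3* were matched through synonyms in RefSeq. The labels call each sample a separate mouse, and p-values measure the spread between mice.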

Additional observations from a re-analysis of the deposited data

Results flagged for a closer look

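In KOhfd52, 4 of the 7 class II genes stood apart below the other 8 *Gpr180*KO livers by Dixon's criterion on log2(FPKM + 0.1), *H2-Aa* at 27.0, *H2-Ab1* at 15.9, *H2-Eb1* at 10.1 and *H2-DMb1* at 2.00 FPKM. Their gap ratios were 0.566, 0.504, 0.499 and 0.4934 against a critical value of 0.493, so most passed narrowly. Without KOhfd52 the log2 difference between the genotypes was -0.14 for *H2-Aa*, -0.15 for *H2-Ab1*, -0.073 for *H2-Eb1* and -0.15 for *H2-DMb1*, and 0 of 6 members were called. Leaving out other libraries moved these values as far, to -0.12, -0.19, -0.052 and -0.14 without W318HFD and to -0.36, -0.33, -0.28 and -0.35 without WThfd134. *H2-DMb1* in KOhfd52, at 2.00 FPKM, also stood apart within the 5 *Gpr180*KO livers of series 2. Among the 4 wild-type livers of series 1, *Cd74* was lowest in W319HFD, at 94.5 FPKM, by the same criterion. In all, 6 of 42 combinations of gene and group met it, where chance gives about 1 in 20, and the genes vary together, so these are not separate events.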

How the results depend on the processing

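Members called lower and members called higher stayed at 0 in all but 1 of the alternatives run, the exception being series 1 alone, where 1 member, *H2-Aa*, was lower. With weights per library the log2 differences ran from -0.46 for *H2-Aa* to -0.10 for *H2-DMa*. There 4 of 6 members had an unadjusted limma p under 0.05, as did 2970 of 10835 genes. In series 1 alone 5 of 6 members had one, as did 2638 of 10835 genes. The number of genes called over the table, 513, moved to 837 and 238 with minimums of 0.1 and 5 FPKM, 283 with median-of-ratios scaling, 254 with 75th percentile scaling, 1153 with the series as a covariate, 1331 with weights per library, 0 in series 2 alone, and 132 to 922 when each library was left out. Without KOhfd51 it was 778, and without KOhfd52 222. The number of members whose ratio to *Ptprc* passed the adjusted threshold of the exact test was 0 to 1 with a library left out, and 1 with *Laptm5* as the reference. The number of neighbours in the order of levels that differed, 11, went to 0 in series 1 and 0 in series 2, where 4 or 5 libraries cannot reach the threshold.

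Signs changed only in values that were not called. In series 2 alone the log2 difference was 0.15 for *Cd74*, 0.16 for *H2-Aa*, 0.17 for *H2-Eb1*, 0.075 for *H2-DMa* and 0.087 for *H2-DMb1*. *H2-DMa* was at 0.085 with median-of-ratios scaling, with or without the series as a covariate, 0.041 with 75th percentile scaling, and -0.12 to 0.036 with a library left out. In series 1 alone the log2 ratio was -0.043 for *H2-Aa* to *Ptprc*, -0.00027 for *Ciita* to *Ptprc*, -0.17 for *H2-Aa* to *H2-Ab1*, -0.038 for *H2-Eb1* to *H2-Ab1* and -0.024 for *Cd74* to *H2-Ab1*, and in series 2 alone -0.012 for *H2-DMa* to *H2-DMb1* and -0.081 for *H2-DMa* to *H2-Aa*. With a library left out, the log2 difference ran from -0.36 to -0.12 for *H2-Aa*, from -0.34 to -0.15 for *H2-Ab1*, from -0.28 to -0.052 for *H2-Eb1*, from -0.26 to -0.093 for *Cd74* and from -0.37 to -0.14 for *H2-DMb1*, *H2-Aa* to *H2-Ab1* ran from -0.022 to 0.086 and *Ciita* to *Ptprc* from -0.017 to 0.21. The cause of these changes was not tested. Of 642 single-gene values under alternatives, 607 kept their sign and their side of the threshold. No paired analysis was possible because the labels tie no wild-type mouse to a *Gpr180*KO mouse.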
